A study of Sus scrofa with 9 samples.

Results

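The genes of glycolysis and gluconeogenesis were examined in the livers of 9 Wujin pigs fed 3 levels of added iron. The members were 36 gene symbols of these pathways, taken by symbol from the 25918 genes of the deposited table. Its values are FPKM, sequenced fragments scaled to the length of a gene and the size of the library. All 36 symbols were found, on 37 rows, because LDHB is annotated at 2 loci. Of these rows, 34 had a mean of at least 0.5 FPKM over the 9 libraries and entered the test with all other genes that met the same filter. These 34 rows were above 0 in all 9 libraries. The other 3, HK2, ENO2 and FBP2, lay under that filter and are given by their levels only.

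The pigs entered the study at 35 days of age, were prefed for 5 days and received their diets for 30 days. All groups were fed the same basic diet. The low-iron group (pigs 2, 3 and 7) received 0 mg/kg of added iron, the control group (pigs 4, 5 and 6) 100 mg/kg and the high-iron group (pigs 2, 7 and 8) 200 mg/kg, the added iron being iron glycinate. The low-iron diet was therefore not supplemented, but the iron of the basic diet remained in it. Each pig was housed alone, males and females entered the whole trial in equal number, and the labels give neither the sex of a sequenced pig nor the time since its last meal. A library is 1 pig, and a pig number used in the low-iron and the high-iron group names different animals.

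Glycolysis splits glucose to pyruvate in the cytosol, and gluconeogenesis, a task of liver and kidney, builds glucose from lactate, glycerol and amino acids. The pathways share the reversible steps and differ at the irreversible ones, where phosphofructokinase and pyruvate kinase are among the enzymes that oppose glucose 6-phosphatase, fructose bisphosphatase, pyruvate carboxylase and phosphoenolpyruvate carboxykinase (PEPCK). The PFKFB enzymes make and break fructose 2,6-bisphosphate, which activates phosphofructokinase and inhibits fructose bisphosphatase. The pyruvate dehydrogenase kinases (PDK) switch off the entry of pyruvate into the citric acid cycle. Many glycolytic genes are targets of the hypoxia-inducible factors (HIF), whose prolyl hydroxylases need iron.

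Hepatocyte markers were high in every library, as the tissue label says. The summed level of 10 hepatocyte markers lay between 76773 and 98536 FPKM per library, with ALB between 46231 and 74134 FPKM. The sum of FPKM per library was 416922 to 456420, and the members took 0.694% (high-iron 7) to 0.972% (low-iron 3) of it. The table holds FPKM only, so no read counts stand behind the values given here. No library was lowest or highest in most members: control 5 was the lowest in 11 of 34, high-iron 2 in 8 of 34, and low-iron 3 the highest in 8 of 34.

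The liver pattern of the pathway was clear in all 3 groups. The 8 rows with the highest mean FPKM over the 9 libraries were PCK1 (cytosolic PEPCK) at 674, G6PC (glucose 6-phosphatase) at 511, FBP1 (fructose bisphosphatase) at 456, GAPDH at 374, PCK2 (mitochondrial PEPCK) at 297, ENO1 (enolase) at 173, LDHB on chromosome 5 at 167 and PC (pyruvate carboxylase) at 139. Of the 8, PCK1, G6PC, FBP1, PCK2 and PC belong to gluconeogenesis and not to glycolysis. The isoenzymes typical of liver took most of the summed FPKM of their step. SLC2A2, the bidirectional glucose transporter of hepatocytes, held 93.1% to 97.9% of the sum of SLC2A1 and SLC2A2, ENO1 99.2% to 99.8% of the enolases and FBP1 at least 99.5% of the fructose bisphosphatases. PFKL, the liver phosphofructokinase, held 75.4% to 81.3% of its step and PFKFB1 68.1% to 86.4% of the PFKFB sum. PKLR, the liver and red cell pyruvate kinase, varied more, from 50.5% in low-iron 3 to 83.0% in low-iron 2, the rest being PKM. HK2, the muscle hexokinase, was at most 0.254 FPKM, ENO2, the neuronal enolase, at most 0.397 FPKM and FBP2, the muscle fructose bisphosphatase, at most 1.69 FPKM. ENO2 was listed at 0 in control 4 and control 5 and at 0.0245 FPKM in control 6, below the 0.0712 to 0.397 FPKM of the other 6 libraries, and was not tested at these levels.

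**Figure D1:**
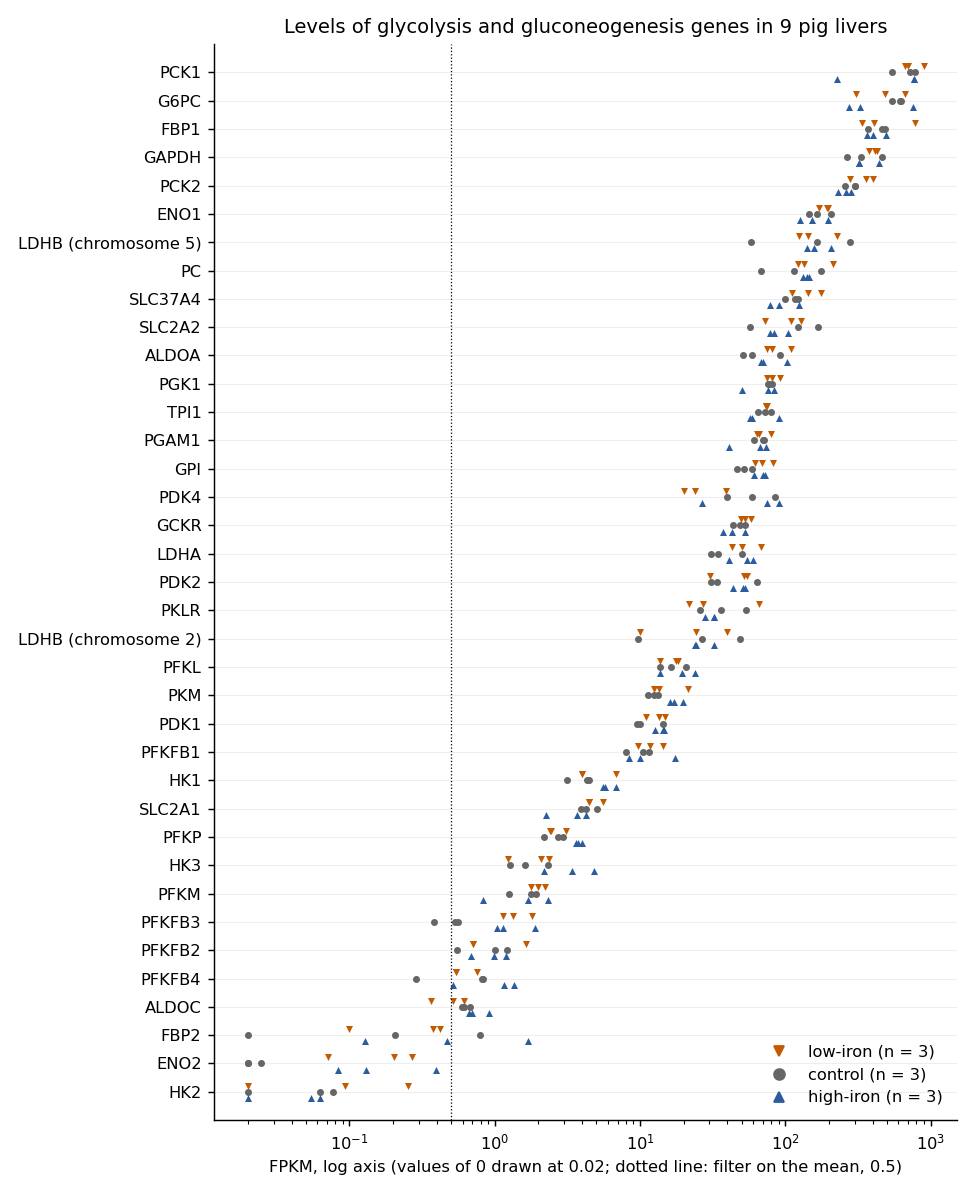
Levels of the 37 rows in the 9 livers, on a log axis of FPKM, ordered by the mean, 1 point per library and 3 libraries per group; values of 0 are drawn at 0.02. The gluconeogenic genes PCK1, G6PC and FBP1 stand at the top with means of 674, 511 and 456 FPKM, HK2, ENO2 and FBP2 lie under the filter of 0.5, and for PFKFB3 the 3 control points lie left of all others.

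The question of the design was whether these genes differ between diets with less and with more iron. Most did not by the thresholds of the study, at least a doubling or halving together with p under 0.05 before adjustment. These were applied to a limma fit of log2(FPKM + 0.1), and below a row that met both is said to pass. Between the low-iron and the control group 2 of 34 rows passed, against 0.882% of all 12584 genes. They were PFKFB3, which was higher (0.596% of all genes), and PDK4, which was lower (0.286%). Between the high-iron and the control group PFKFB3 alone passed, 1 of 34 rows against 1.57% of all genes (1.27% higher and 0.294% lower). Between the high-iron and the low-iron group PDK4 alone passed, as higher, 1 of 34 rows against 1.54% of all genes (1.01% higher and 0.532% lower). No row had a Benjamini-Hochberg adjusted limma p under 0.05 in any comparison, where 0%, 0.00795% and 0% of all genes did, and the unadjusted counts follow.

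At p under 0.05 before adjustment and with any fold, 3 of 34 rows (2 higher, 1 lower) met the test in low-iron against control, beside 3.68% of all genes (2.92% higher, 0.763% lower). In high-iron against control 5 rows did, all higher, beside 5.59% (4.78% higher, 0.811% lower). In high-iron against low-iron 4 rows did, 3 higher and 1 lower, beside 7.15% (4.03% higher, 3.12% lower). Each of these counts exceeds the background share by few rows. The libraries of the groups did not overlap for 3 rows (2 higher, 1 lower) in the first comparison, beside 8.34% of all genes (6.1% higher, 2.24% lower), which is close to the background. They did not overlap for 5 rows, all higher, in the second, beside 10.9% (9.14% higher, 1.76% lower), and for 3 rows (2 higher, 1 lower) in the last, beside 13.2% (8.11% higher, 5.13% lower), which is under the background.

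Small shifts followed the shifts of all genes in part. Between the low-iron and the control group 27 of 34 rows (79.4%) were higher, with a median log2 difference of 0.13, beside 62.7% and 0.08 for all genes. Between the high-iron and the control group 19 of 34 (55.9%) were higher, with a median of 0.11 beside 65% and 0.10. Between the high-iron and the low-iron group 12 of 34 (35.3%) were higher, with a median of -0.10 beside 53.6% and 0.03. With median-of-ratios scaling, which moved the median of all genes from 0.10 to -0.03 in high-iron against control, the rows that were higher numbered 22, 17 and 12, beside 49.6%, 46.1% and 48.2% of all genes, and the medians were 0.05, -0.01 and -0.15. Without high-iron 2, the lowest library in 8 rows, 17 of 34 were higher in high-iron against low-iron, with a median of -0.01. The low-iron and high-iron comparisons share the 3 control libraries, so control 5, the lowest library in 11 rows, enters both. Without it 24 and 18 rows were higher, with medians of 0.08 and 0.02. The high-iron median was 0.06 without control 6, 0.07 without high-iron 8 and 0.20 without high-iron 2.

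**Figure D2:**
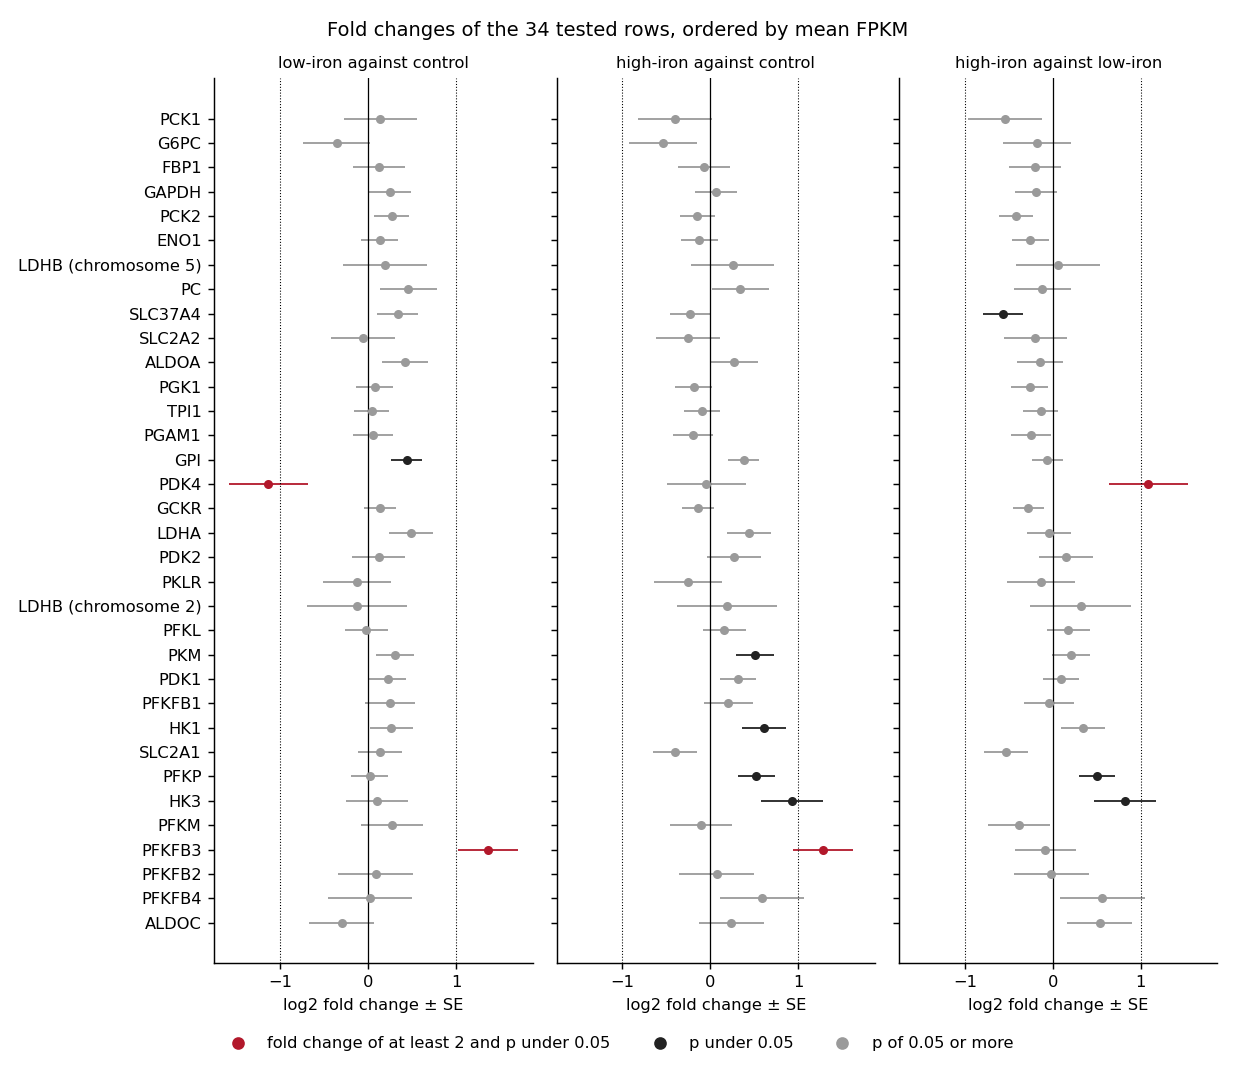
Log2 fold change with its standard error for the 34 tested rows in the 3 comparisons, ordered by mean FPKM; dotted lines mark a fold change of 2. PFKFB3 lies beyond the line at 1.36 and 1.28 against the control group and PDK4 at -1.13 and 1.09 in the comparisons with the low-iron group, while the other 32 rows stay inside the lines in all panels.

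PFKFB3, the PFKFB isoenzyme with the highest ratio of kinase to phosphatase activity and a known target of HIF, was lower in the control group than in both others. The gene lies on the minus strand at chr10:64776315-64859118 (Sscrofa11.1). It was 1.34, 1.79 and 1.14 FPKM in low-iron 2, 3 and 7, then 0.530, 0.559 and 0.379 FPKM in control 4, 5 and 6, and 1.04, 1.91 and 1.14 FPKM in high-iron 2, 7 and 8. Each of the 6 libraries of the low-iron and high-iron groups lay above each control library. The low-iron group averaged 1.43 ± 0.334 FPKM and the control group 0.490 ± 0.0967 FPKM (SD, n = 3), and PFKFB3 rose by 1.36 ± 0.34 on the log2 scale (± SE here and for all log2 differences; limma p = 0.00237, Benjamini-Hochberg adjusted p = 0.9998; two-sided exact permutation p = 0.1). The high-iron group averaged 1.36 ± 0.474 FPKM (SD, n = 3) and lay 1.28 ± 0.34 above the control group on that scale (limma p = 0.0036, Benjamini-Hochberg adjusted p = 0.885; two-sided exact permutation p = 0.1). The low-iron and high-iron groups differed by -0.09 on the log2 scale, less than the spread between libraries. An exact permutation test over the 3 groups gave p = 0.025, and 0.1 is the smallest p that 3 against 3 libraries allow. Both calls held without each of the 9 libraries in turn, and both were lost with a pseudocount of 1, where the log2 differences were 0.70 and 0.65. The control level lies near 0.5 FPKM, where a larger pseudocount shrinks a fold change. The control mean of 0.490 FPKM is under the filter of 0.5. The row met that filter only by its mean over the 9 libraries, 1.09 FPKM, through the higher groups. With no filter the limma p was 0.00299 (low-iron) and 0.00417 (high-iron). Both calls rest on the same 3 control libraries and are not independent. PFKFB3 was 4.04% ± 0.135 of the PFKFB sum in the control group and 9.68% ± 3.04 and 9.71% ± 5.26 in the low-iron and high-iron groups (SD, n = 3), so PFKFB1 stayed the most abundant of the 4 in every library.

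The other PFKFB genes did not pass in any comparison. PFKFB1 averaged 11.9 ± 2.39 FPKM in the low-iron and 10.02 ± 1.85 FPKM in the control group (SD, n = 3), and the high-iron libraries had 17.5, 8.40 and 10.1 FPKM. PFKFB2 averaged 1.02 ± 0.540, 0.927 ± 0.342 and 0.954 ± 0.257 FPKM in the same order. PFKFB4, which like PFKFB3 is known to respond to hypoxia, averaged 0.610 ± 0.121, 0.645 ± 0.308 and 1.01 ± 0.433 FPKM, 0.02 ± 0.48 (low-iron) and 0.59 ± 0.48 (high-iron) from the control group on the log2 scale. All 3 thus overlapped between all groups.

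PDK4, the kinase of pyruvate dehydrogenase that fasting and fatty acids induce in liver, was lowest in the low-iron group. The gene lies on the minus strand at chr9:75246956-75260134. It was 20.2, 23.9 and 38.8 FPKM in low-iron 2, 3 and 7, then 59.3, 85.5 and 39.5 FPKM in control 4, 5 and 6, and 26.6, 74.8 and 90.5 FPKM in high-iron 2, 7 and 8. The low-iron and control groups did not overlap, although low-iron 7 and control 6 lay side by side, and high-iron 2 lay among the low-iron libraries. PDK4 fell by 1.13 ± 0.45 on the log2 scale from the control to the low-iron group (limma p = 0.0292, Benjamini-Hochberg adjusted p = 0.9998; two-sided exact permutation p = 0.1). It was higher in the high-iron than in the low-iron group by 1.09 ± 0.45 (limma p = 0.0353, Benjamini-Hochberg adjusted p = 0.678; two-sided exact permutation p = 0.2). The high-iron and control groups, at 64.0 ± 33.3 and 61.4 ± 23.1 FPKM (SD, n = 3), differed by -0.05 on the log2 scale. Each call held without 5 of the 9 libraries in turn. The call against the control group was lost without low-iron 2 (log2 difference -0.94), low-iron 3 (-1.06), control 4 (-1.13) or control 5 (-0.86), and that between the high-iron and low-iron groups without low-iron 2 (0.89), low-iron 3 (1.01), high-iron 7 (0.88) or high-iron 8 (0.75).

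The other kinases did not follow PDK4. PDK1, a target of HIF, averaged 13.1 ± 1.96, 11.4 ± 2.73 and 13.9 ± 0.997 FPKM in low-iron, control and high-iron pigs, and PDK2, the widely expressed isoenzyme, 45.7 ± 13.4, 43.0 ± 18.4 and 49.1 ± 4.87 FPKM (SD, n = 3), neither with a p under 0.05. As a share of the summed FPKM of PDK1 to PDK4, PDK4 held 22.8%, 36.0% and 35.8% in the low-iron, 56.7%, 51.6% and 48.5% in the control and 31.6%, 51.9% and 57.6% in the high-iron libraries. PDK2 held 51.6% ± 6.57, 36.4% ± 3.29 and 40.2% ± 10.1 in the same groups (SD, n = 3).

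**Figure D3:**
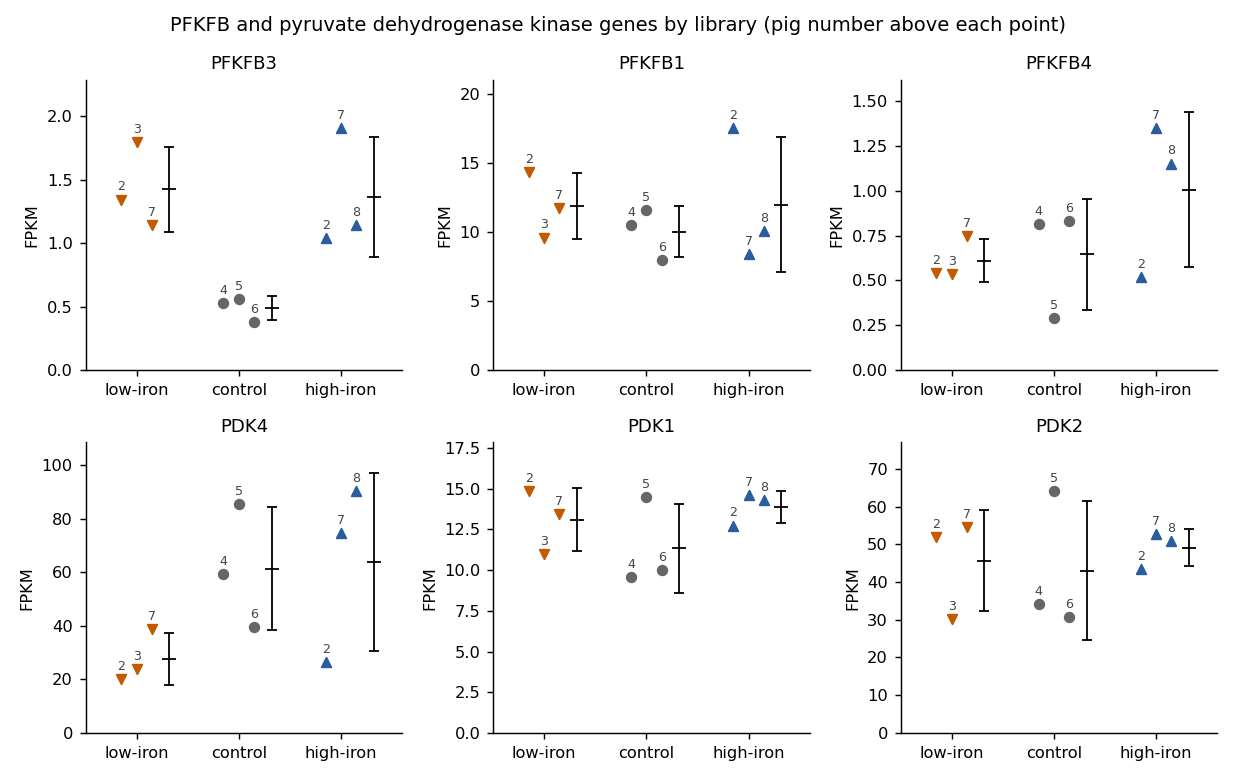
FPKM of PFKFB3, PFKFB1, PFKFB4, PDK4, PDK1 and PDK2 in each library, numbered by pig, with the mean and SD of each group beside its 3 points; all axes start at 0. For PFKFB3 the 3 control points (0.379 to 0.559 FPKM) lie below the other 6, for PDK4 the low-iron points (20.2 to 38.8 FPKM) lie below the control points, and the groups overlap for the other 4 genes.

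The sequences just before the annotated start of the 2 genes that passed are shown because PFKFB3 is known as a target of HIF, whose binding core is searched for here. Each is the 250 bases before the start in Sscrofa11.1 (RefSeq annotation), read on the strand of the gene, PFKFB3 from chr10:64859119-64859368 (minus strand) and PDK4 from chr9:75260135-75260384 (minus strand). Capitals mark the HIF core GCGTG.
PFKFB3: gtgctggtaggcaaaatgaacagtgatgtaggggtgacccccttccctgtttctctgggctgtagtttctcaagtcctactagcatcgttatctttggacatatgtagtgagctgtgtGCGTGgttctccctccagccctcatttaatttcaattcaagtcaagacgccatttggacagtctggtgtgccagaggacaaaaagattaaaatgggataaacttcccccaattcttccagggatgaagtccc
PDK4: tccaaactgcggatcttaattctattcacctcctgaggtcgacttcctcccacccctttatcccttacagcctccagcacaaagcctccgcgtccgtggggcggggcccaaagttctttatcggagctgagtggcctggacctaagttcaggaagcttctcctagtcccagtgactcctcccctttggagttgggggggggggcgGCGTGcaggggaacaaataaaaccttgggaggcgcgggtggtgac
Both strands were searched for this core and for its other form, which is ACGTG. The PFKFB3 window holds 1 GCGTG that begins 132 bases before the start, and the PDK4 window 1 that begins 45 bases before it, and neither window holds the other form. The form in capitals occurred in 38.4% of the 11688 windows of this length before tested genes, the other form in 21.2% and either in 50.2%, and 20 of the 34 member windows held either. The E-box CACGTG, which contains the other form, was in 4 of the 34 member windows and in 7.75% of all. A match describes letters and is not a measured binding site.

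Among the trunk enzymes of glycolysis no row passed the thresholds of the study. Of 13 tested, 10 were higher in the low-iron than in the control group (median log2 difference 0.07), beside 62.7% and 0.08 for all genes. With median-of-ratios scaling 6 of the 13 were higher, beside 49.6% of all genes. In high-iron against control 7 were higher (0.06), but 12 without high-iron 2 (0.14), 9 without control 6 (0.27) and 5 without high-iron 7 (-0.10), so the direction of the median depends on single libraries. In high-iron against low-iron 4 were higher (-0.14), and 7 without high-iron 2. GPI, which turns glucose 6-phosphate into fructose 6-phosphate, was lower in the control group than in both others. It was 62.4, 68.9 and 82.2 FPKM in low-iron 2, 3 and 7, 51.6, 46.9 and 58.6 FPKM in control 4, 5 and 6, and 60.5, 70.7 and 72.5 FPKM in high-iron 2, 7 and 8. Each control library lay below each of the other 6. On the log2 scale low-iron lay 0.44 ± 0.18 above control (limma p = 0.0316, Benjamini-Hochberg adjusted p = 0.9998) and high-iron 0.38 ± 0.18 above it (limma p = 0.0577, Benjamini-Hochberg adjusted p = 0.901), and the exact permutation p over the 3 groups was 0.0464. Without low-iron 7, control 4 or control 5 the low-iron difference was 0.33, 0.43 and 0.36, and its limma p was above 0.05.

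LDHA, the lactate dehydrogenase subunit that favours lactate production and a known HIF target, was 42.8, 68.0 and 50.7 FPKM in low-iron 2, 3 and 7, 30.9, 34.5 and 50.4 FPKM in control 4, 5 and 6, and 41.1, 54.6 and 59.9 FPKM in high-iron 2, 7 and 8. Control 6 lay inside the range of both other groups. On the log2 scale the low-iron group was 0.48 ± 0.25 above control (limma p = 0.0785, Benjamini-Hochberg adjusted p = 0.9998; two-sided exact permutation p = 0.2). The high-iron group was 0.44 ± 0.25 above it (limma p = 0.105, Benjamini-Hochberg adjusted p = 0.933; two-sided exact permutation p = 0.2). Neither passed. ALDOA, the aldolase of muscle and many other tissues, averaged 88.6 ± 18.4, 67.5 ± 21.9 and 80.3 ± 19.1 FPKM in low-iron, control and high-iron pigs (SD, n = 3). Over the 9 libraries the log2 levels of LDHA and ALDOA moved together (Pearson's r = 0.80, exact permutation p = 0.0107, Benjamini-Hochberg adjusted over 4 relations 0.0427; Spearman's rho = 0.72, exact permutation p = 0.0369, adjusted 0.0492). Without control 4 and control 5, the libraries farthest from the median of LDHA, r was 0.57 (exact permutation p = 0.189), so the relation rests in part on those libraries.

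Several trunk enzymes showed small differences. GAPDH, TPI1, PGK1, PGAM1 and ENO1, which carry the steps from triose phosphate to phosphoenolpyruvate, had log2 differences between -0.27 and 0.25 over the 3 comparisons, each with a limma p above 0.2. PFKL, PFKM and PKLR lay between -0.39 and 0.28. ALDOC, the aldolase of brain, was 0.615, 0.365 and 0.517 FPKM in low-iron 2, 3 and 7 and 0.916, 0.701 and 0.665 FPKM in high-iron 2, 7 and 8. These groups did not overlap, 0.53 ± 0.37 apart on the log2 scale (limma p = 0.178; exact permutation p over the 3 groups 0.0214), at levels under 1 FPKM.

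LDHB, the lactate dehydrogenase subunit that favours pyruvate, had the widest spread among libraries of the same group of the 34 tested rows. The locus on chromosome 5 (51810932 to 51831218) had 164, 58.5 and 280 FPKM in control 4, 5 and 6, a range that held all low-iron (124 to 228 FPKM) and high-iron libraries (141 to 205 FPKM). The locus on chromosome 2 (12988754 to 12990033) has 1 annotated exon, against up to 8 at the locus on chromosome 5. It had 26.6, 9.73 and 48.6 FPKM in the same control libraries. Its coding sequence of 1005 bases matched that of the chromosome 5 locus at all but 8 bases (99.2% identity), so the division of reads between the 2 loci is uncertain. Chromosome 2 took 13.4% to 14.8% of the sum in 8 libraries and 7.45% in low-iron 3. Together the 2 loci held 66.4% to 86.7% of the FPKM of LDHA and LDHB.

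In the high-iron group 4 enzymes that hepatocytes use little were higher than in the control group at an unadjusted p under 0.05, all with a fold change under 2. HK1, the hexokinase of most tissues, was 5.71, 5.60 and 6.89 FPKM in high-iron 2, 7 and 8 and 4.35, 3.16 and 4.45 FPKM in control 4, 5 and 6. HK3, a hexokinase of myeloid cells, was 2.19, 3.41 and 4.83 FPKM against 1.62, 2.32 and 1.28 FPKM in the same libraries. PFKP, the platelet phosphofructokinase, was 3.65, 3.73 and 3.96 FPKM against 2.71, 2.19 and 2.96 FPKM. PKM, the pyruvate kinase outside hepatocytes, was 16.2, 19.6 and 17.1 FPKM against 12.5, 11.4 and 13.3 FPKM. Every high-iron library lay above every control library for HK1, PFKP and PKM, and for HK3 high-iron 2 lay below control 5. On the log2 scale the differences were 0.60 ± 0.25 for HK1 (limma p = 0.0349; two-sided exact permutation p = 0.1), 0.93 ± 0.35 for HK3 (limma p = 0.0241; exact 0.2), 0.52 ± 0.21 for PFKP (limma p = 0.0283; exact 0.1) and 0.50 ± 0.22 for PKM (limma p = 0.0401; exact 0.1). The Benjamini-Hochberg adjusted limma p was 0.892 for each. With median-of-ratios scaling the unadjusted limma p was 0.0642 for HK1, 0.0624 for PFKP and 0.0944 for PKM, while for HK3 it was 0.0342. The p also moved above 0.05 when single libraries were left out, although some of the differences stayed as large (0.64 for HK1 without high-iron 2, 0.53 for PFKP without high-iron 7, and 0.51, 0.56 and 0.53 for PKM without control 4, control 6 or high-iron 8). This was so for HK1 without control 5, high-iron 2 or high-iron 8, for PFKP without control 5, high-iron 7 or high-iron 8, for PKM without any control library, high-iron 7 or high-iron 8, and for HK3 without control 4, control 6, high-iron 7 or high-iron 8. HK3 passed the thresholds of the study without control 5 (1.14) or high-iron 2 (1.21).

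The low-iron group separated these enzymes. PFKP was 2.41, 3.11 and 2.44 FPKM in low-iron 2, 3 and 7, below each high-iron library (0.50 ± 0.21 on the log2 scale, limma p = 0.0328, Benjamini-Hochberg adjusted p = 0.667; exact permutation p over the 3 groups 0.0429). HK3 was 1.24, 2.36 and 2.08 FPKM there, with high-iron higher by 0.82 ± 0.35 (limma p = 0.0407, Benjamini-Hochberg adjusted p = 0.688; two-sided exact permutation p = 0.2). HK1 and PKM overlapped between the low-iron and high-iron groups, because low-iron 3 had 6.80 FPKM of HK1 and 21.2 FPKM of PKM, the highest PKM of all libraries.

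Markers of several other liver cells were higher in the high-iron group too. Of 11 macrophage markers 10 were higher in high-iron than in control (median log2 difference 0.54) and 7 had an unadjusted p under 0.05, CD163 and CSF1R among them, and none of the 11 was at 0 in all libraries. Their summed level was 1102 to 1374 FPKM in the high-iron, 774 to 1062 FPKM in the control and 939 to 1079 FPKM in the low-iron libraries. Of 9 endothelial markers 8 were higher, 5 of them with a p under 0.05, with sums of 280 to 336 FPKM against 226 to 267 FPKM in the control and 234 to 301 FPKM in the low-iron libraries. Of 10 tested rows of T and NK cell markers 10 were higher and 3 had a p under 0.05. GZMA filled 2 of these rows, and GZMB lay under the filter. The sums of all listed T and NK cell markers were 36.9 to 62.5 FPKM against 26.4 to 37.9 FPKM in the control and 25.7 to 33.0 FPKM in the low-iron libraries. Of 9 stellate cell and fibroblast markers 9 were higher and 3 had a p under 0.05 (sums of 222 to 331 FPKM against 132 to 216 FPKM in the control and 137 to 330 FPKM in the low-iron libraries). Low-iron 3, which had high HK1 and PKM, was at 329.8 FPKM for that sum. Of 7 B and plasma cell markers 4 were higher (median 0.11), and of 2 erythroid markers 0 (-0.14), in the limma fit with 0 of either at p under 0.05 before adjustment. Of 5 tested neutrophil and granulocyte markers 5 were higher (0.55) and of 5 bile duct markers 4 (0.56), also with 0 at that p. Among all genes 65% were higher in this comparison, and 4.78% were higher with a p under 0.05. The hepatocyte markers had a median of -0.004 in the same comparison. In whole liver, fewer or more cells of a type and less or more RNA per cell cannot be told apart, and the part of these cells in the levels of HK1, HK3, PFKP and PKM was not tested. Over the 9 libraries PKM and the mean log2 level of the macrophage markers had r = 0.58 (exact permutation p = 0.104, Benjamini-Hochberg adjusted over 4 relations 0.138) and rho = 0.77 (exact permutation p = 0.0214, adjusted 0.0492). Without low-iron 3, whose PKM was the highest, r was 0.82 (exact permutation p = 0.0115). Without low-iron 3 and high-iron 7, the libraries farthest from the median of PKM, r was 0.99. These higher values depend on leaving out low-iron 3 and do not replace the r over all 9 libraries. PKM and most macrophage markers were higher in high-iron than in control, so r over the pooled groups does not show a relation within groups.

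**Figure D4:**
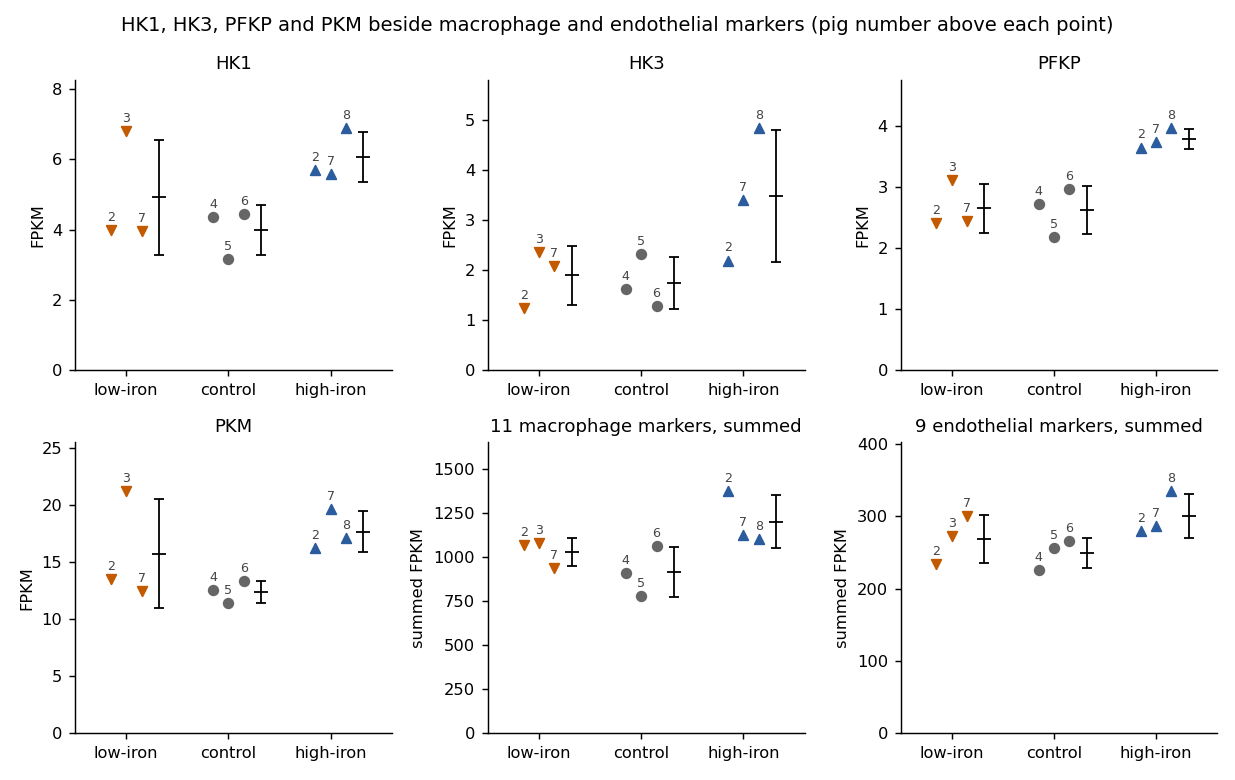
FPKM of HK1, HK3, PFKP and PKM and summed FPKM of 11 macrophage and 9 endothelial markers in each library, numbered by pig, with the mean and SD of each group; all axes start at 0. The high-iron points lie above all control points for HK1, PFKP and PKM and for both marker sums, and low-iron 3 is high for HK1 (6.80 FPKM) and PKM (21.2 FPKM).

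GCKR and SLC2A2 belong to the entry of glucose into the cell and its regulation. GCKR, a regulatory protein of glucose metabolism in hepatocytes, averaged 53.2 ± 4.20, 48.5 ± 4.42 and 44.2 ± 7.90 FPKM in low-iron, control and high-iron pigs. SLC2A2 averaged 104 ± 28.6, 116 ± 56.0 and 89.0 ± 14.2 FPKM (SD, n = 3 for both genes). Neither had a p under 0.05. SLC2A1, the glucose transporter of red cells and endothelium and a known HIF target, was 4.48, 5.58 and 4.48 FPKM in low-iron 2, 3 and 7, 5.09, 3.91 and 4.25 FPKM in control 4, 5 and 6, and 2.25, 4.27 and 3.70 FPKM in high-iron 2, 7 and 8. Each high-iron library lay below each low-iron library, -0.54 ± 0.25 on the log2 scale (limma p = 0.0573, Benjamini-Hochberg adjusted p = 0.713; exact permutation p = 0.1).

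The gluconeogenic genes were high in every library, and none passed the thresholds of the study. Between the high-iron and the low-iron group all 6 tested had a lower mean log2 level (median log2 difference -0.31), and with median-of-ratios scaling or quantile normalization the count was also 6 of 6. Without high-iron 7 the count was 4 of 6 (median -0.09), and without low-iron 3 it was 4 of 6 (-0.43). Against the control group 5 of 6 were higher in the low-iron group (median 0.20, with 4 of 6 and 0.06 without control 5). In the high-iron group 1 of 6 was higher than in the control group (-0.19, with 3 of 6 without high-iron 7). Among all genes 62.7% and 65% were higher in these comparisons, and 53.6% in high-iron against low-iron. SLC37A4, which carries glucose 6-phosphate to G6PC in the endoplasmic reticulum, was the only one of the 6 with a p under 0.05. It was 144, 112 and 177 FPKM in low-iron 2, 3 and 7, 122, 99.9 and 116 FPKM in control 4, 5 and 6, and 123, 78.5 and 90.5 FPKM in high-iron 2, 7 and 8. High-iron 2 lay above low-iron 3, and these groups differed by -0.57 ± 0.23 on the log2 scale (limma p = 0.0319, Benjamini-Hochberg adjusted p = 0.667; two-sided exact permutation p = 0.2). The p was above 0.05 without low-iron 2, low-iron 7, high-iron 7 or high-iron 8 and with quantile normalization. PCK2 was 359.5, 278 and 405 FPKM in the low-iron and 230.5, 260 and 283 FPKM in the high-iron libraries (-0.42 ± 0.20 on the log2 scale, limma p = 0.0595, Benjamini-Hochberg adjusted p = 0.716; two-sided exact permutation p = 0.2).

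PCK1 and G6PC, the most abundant members and classic targets of glucagon and insulin, differed more between pigs than between diets. PCK1 was 694, 897 and 665 FPKM in low-iron 2, 3 and 7, 783, 542 and 727 FPKM in control 4, 5 and 6, and 765, 227 and 769 FPKM in high-iron 2, 7 and 8. Of these only high-iron 7 lay apart, at 227 FPKM where the other 8 libraries spanned 542 to 897 FPKM. G6PC was 307, 664 and 486 FPKM, then 625, 543 and 614 FPKM, then 328, 273 and 759.5 FPKM in the same order. The log2 differences of PCK1 and G6PC lay between -0.54 and 0.14, with standard errors of 0.42 and 0.38 and limma p of 0.189 or more. FBP1 and PC differed by less than the spread between libraries too, FBP1 by 0.12 and -0.08 and PC by 0.46 and 0.34 on the log2 scale in low-iron and high-iron against control. Over the 9 libraries PCK1 and G6PC had r = 0.60 (exact permutation p = 0.0485, Benjamini-Hochberg adjusted over 4 relations 0.0969) and rho = 0.75 (exact permutation p = 0.0255, adjusted 0.0492). Without high-iron 7 r was 0.24 (exact permutation p = 0.571). Without high-iron 7 and control 5, the libraries farthest from the median of PCK1, r was 0.47. Pearson's r thus depends on high-iron 7, which these values do not show for rho. PCK1 and PDK4, both of which fasting induces, had r = -0.45 (exact permutation p = 0.229) and rho = -0.23 (p = 0.552), with r = -0.01 without the 2 farthest libraries.

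High-iron 7, which had the lowest PCK1 and G6PC, was also the lowest of the 9 libraries for CPT1A and SDS, which are listed with them among the genes induced in liver by fasting. CPT1A, which admits fatty acids to mitochondria, was 20.7 FPKM there, and SDS, which breaks down serine, 12.9 FPKM. Other genes of that list were not low in it, among them PDK4 at 74.8 FPKM and IGFBP1 at 150.3 FPKM, where the libraries spanned 20.2 to 90.5 FPKM and 19.8 to 199.6 FPKM. CPT1A, SDS and IGFBP1 were looked at in this library after their values were seen. The time between the last meal and slaughter is not in the labels. The authors state that serum was taken on an empty stomach, without giving a length of fasting. No test of a single library was made.

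**Figure D5:**
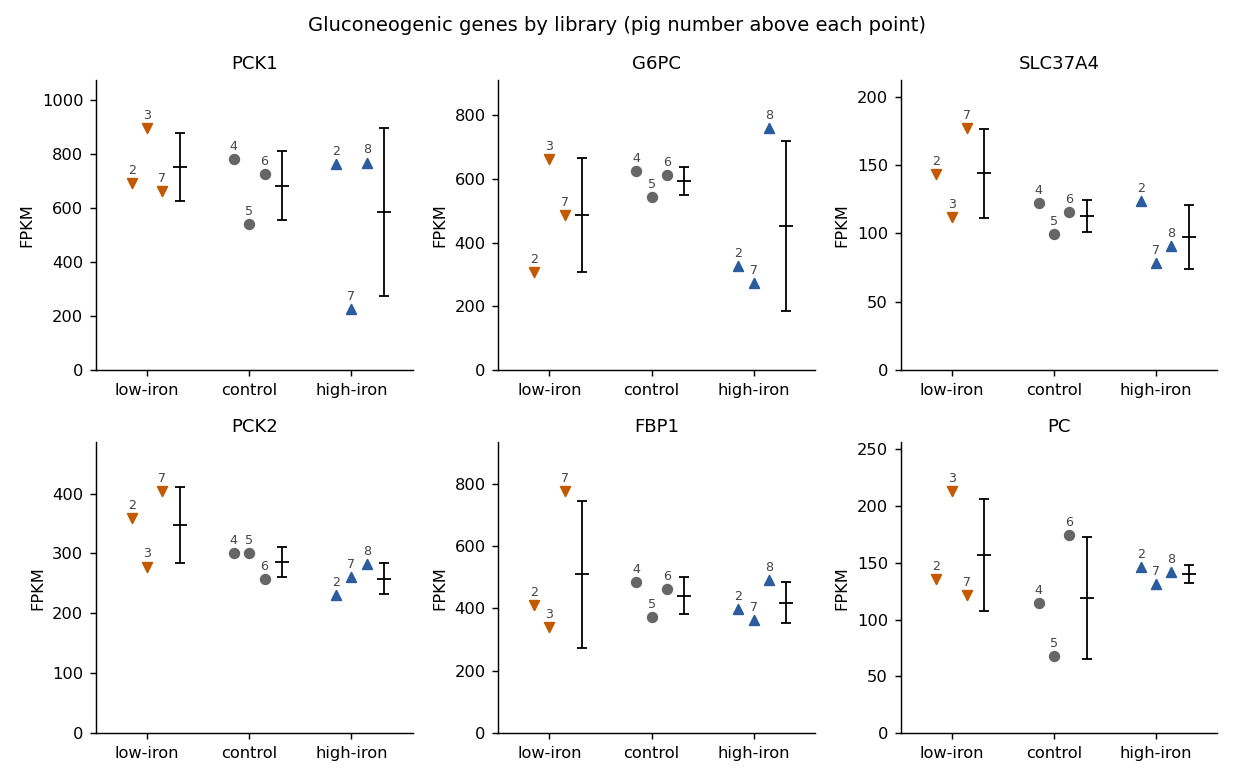
FPKM of PCK1, G6PC, SLC37A4, PCK2, FBP1 and PC in each library, numbered by pig, with the mean and SD of each group beside its 3 points; all axes start at 0. High-iron 7 is the lowest library for PCK1 (227 FPKM), G6PC (273 FPKM) and SLC37A4 (78.5 FPKM), and the groups overlap for all 6 genes.

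Other genes around the pathway were described by lists. Of 14 further glycolysis and gluconeogenesis genes tested, 0 passed the thresholds of the study in any comparison of the limma fit, with 1, 0 and 1 at an unadjusted p under 0.05 in low-iron against control, high-iron against control and high-iron against low-iron. Of 17 genes of glycogen synthesis and breakdown 0 passed (0, 1 and 1 at that p), of 8 of the pentose phosphate pathway 0 (0, 1 and 0), of 8 of fructose and galactose metabolism 0 (0, 0 and 0) and of 12 of the malate-aspartate shuttle and alanine transamination 0 (0, 1 and 0). Of 13 genes for pyruvate dehydrogenase and the transport of pyruvate and lactate 0 passed (2, 0 and 1). PDHX, which anchors the E3 subunit in that complex, was 12.1, 13.4 and 13.9 FPKM in low-iron 2, 3 and 7, 9.60, 10.2 and 7.85 FPKM in the control and 8.68, 9.44 and 9.48 FPKM in the high-iron libraries, and was chosen after its values were seen. Its low-iron libraries lay above all others, 0.51 ± 0.17 above control on the log2 scale (limma p = 0.0118, Benjamini-Hochberg adjusted p = 0.9998; two-sided exact permutation p = 0.1), and high-iron against low-iron was -0.51 ± 0.17 (limma p = 0.0123, Benjamini-Hochberg adjusted p = 0.615). Of 5 other glucose transporters SLC2A8, an intracellular one, passed in low-iron against control (1.28 ± 0.44 on the log2 scale, limma p = 0.015, Benjamini-Hochberg adjusted p = 0.9998; two-sided exact permutation p = 0.2), with 2.82, 12.2 and 7.42 FPKM against 2.35, 2.15 and 3.33 FPKM. Those groups overlapped, and the call was lost without low-iron 3 (0.82).

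Hypoxia-induced genes outside glycolysis stood beside the members as a reference for HIF targets. Of 17 tested, 16 were higher in low-iron than in control (median log2 difference 0.23, 13 of 17 with median-of-ratios scaling). In high-iron against control 14 of the 17 were higher (0.31, 10 of 17 with median-of-ratios scaling). Among all genes 62.7% and 65% were higher in these comparisons (medians 0.08 and 0.10), and 49.6% and 46.1% with that scaling. The thresholds were passed by 0.882% and 1.57% of all genes. TFRC, the transferrin receptor, which is also held up by the iron regulatory proteins when iron is low, passed in low-iron against control with 87.9, 130 and 28.6 FPKM against 6.51, 17.0 and 7.51 FPKM (2.86 ± 0.56 on the log2 scale, limma p = 0.000412, Benjamini-Hochberg adjusted p = 0.9998; two-sided exact permutation p = 0.1). EGLN3, a HIF prolyl hydroxylase, passed there too, with 4.03, 4.59 and 5.04 FPKM against 0.978, 3.65 and 2.02 FPKM (1.18 ± 0.46, limma p = 0.0266, Benjamini-Hochberg adjusted p = 0.9998; two-sided exact permutation p = 0.1), and lost the call without low-iron 3, low-iron 7, control 4 or control 6, with values from 0.72 to 1.20. In high-iron against control TFRC was the only one of the 17 to pass (1.27 ± 0.56, limma p = 0.0466, Benjamini-Hochberg adjusted p = 0.892; two-sided exact permutation p = 0.2), and it lost the call without low-iron 2, control 4, control 6, high-iron 2 or high-iron 8, with values from 0.86 to 1.42. In high-iron against low-iron, where 6 of 17 were higher (-0.04), TFRC was lower (-1.59 ± 0.56) and lost the call without low-iron 2, low-iron 3, high-iron 7 or high-iron 8 (-1.43 to -1.13). Of the members taken here as HIF targets, PFKFB3 passed, and PFKFB4, LDHA, PDK1, SLC2A1, ALDOA, PGK1, ENO1 and GAPDH did not. This choice is not a complete set of such targets. Of all tested members only PFKFB3 and PDK4 passed in any comparison.

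Across all 12584 tested genes, those whose log2 level followed PFKFB3 most closely over the 9 libraries, leaving out genes without a name, were MYO1D (r = 0.94), TMEM268 (0.92), SERBP1 (0.92), MBOAT1 (0.92) and ADORA2A (0.91). For PDK4 they were WAC (0.96), C1QTNF2 (0.94), CDH7 (0.93), ATP8A1 (0.92) and MMADHC (0.91). These are the highest of many correlations over 9 points that share the 3 groups, and they are given as a description.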

How the data were processed

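Liver RNA of 9 pigs was sequenced, and the authors used HISAT2 for alignment to the Sscrofa11.1 genome and StringTie for assembly, and deposited the FPKM of all libraries in 1 table. Replicates were not pooled, and no scaling between libraries is stated. Groups came from the titles and the design text. Genes carry numbers, and gene N was read as the Nth gene or pseudogene line, counted from 0, of the NCBI annotation release 106 of that build. All 20660 numbered genes fell on protein-coding genes, against 15031 when shifted by 1 line; the other 5258 rows are new genes without a name. Low FPKM values were not whole multiples of a read, so counts could not be recovered from the table and no count test was run.

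A mean of at least 0.5 FPKM left 12584 genes, whose log2(FPKM + 0.1) entered limma 3.58.1 (R 4.3.3; group means, trend, 6 residual degrees of freedom). The screening of the authors used counts and could not be repeated. A gene passed at a 2-fold change or more in either direction if its p before adjustment was under 0.05, with Benjamini-Hochberg adjustment over all tested genes beside it. A fold change on this scale understates that of low genes. Single genes were also tested by exact permutation over the 280 divisions of 9 libraries into 3 groups or the 20 splits of 3 against 3. Where nothing else is said, ± is the SD.

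Named members were those that passed the call, had an unadjusted p under 0.05, did not overlap with a fold change of at least 1.5, were among the 8 highest, or are isoenzymes, LDHA or PFKFB genes, and others for their role; of other genes, list members that passed and the 5 nearest in pattern, where skipping genes without a name was added later. The members and lists were chosen with earlier results of these data known. The fit was tested on simulated data. Alternatives were pseudocounts of 1 and 0.01, no filter, a minimum of 1 FPKM, TPM rescaling, median-of-ratios scaling, quantile normalization, fits of 2 groups, array quality weights, the replicate block and leaving out each library. No 2 libraries held identical values, and their correlations on the log2 scale were 0.928 to 0.962.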

Additional observations from a re-analysis of the deposited data

How the results depend on the processing

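The values that follow are numbers of members that passed the thresholds. In low-iron against control, 2 passed, 1 with a pseudocount of 1, and 1 to 2 when single libraries were left out (1 without low-iron 2, low-iron 3, control 4 or control 5). In high-iron against control, 1 passed, 0 with a pseudocount of 1 (PFKFB3 was 0.65 on the log2 scale), 2 with no filter and with array quality weights, and 1 to 2 without single libraries (2 without control 5 or high-iron 2). In high-iron against low-iron, 1 passed, 0 with no filter (where the p of PDK4 was above 0.05), 2 with array quality weights, and 0 to 2 without single libraries (0 without low-iron 2, low-iron 3, high-iron 7 or high-iron 8, and 2 without high-iron 2). Beyond PFKFB3 and PDK4, HK3 passed with array quality weights in both comparisons with the high-iron group (1.19 and 1.13). The median log2 difference of the members was 0.05 to 0.18 in low-iron against control, -0.15 to -0.01 in high-iron against low-iron and, in high-iron against control, -0.01 (median-of-ratios scaling) to 0.20 (without high-iron 2) over the alternatives, so that its direction in the last depends on the scaling.

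The pig numbers shared by the low-iron and high-iron groups name different animals, and their deviations from the group means correlated by 0.018 and 0.021. With the number as a replicate block the counts were 2, 1 and 1, and the medians 0.14, 0.12 and -0.08; no call changed.

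For PCK1 and G6PC, r was 0.63 with median-of-ratios scaling (exact permutation p = 0.0564), 0.61 with group means removed (p = 0.0851), 0.47 without the 2 farthest libraries and 0.24 (without high-iron 7) to 0.73 without single libraries, its p being above 0.05 without low-iron 3, low-iron 7, control 4, control 6, high-iron 7 or high-iron 8. For LDHA and ALDOA it was 0.57 without the 2 farthest libraries and 0.72 to 0.94 without single libraries. For PKM and the macrophage markers it was 0.99 without the 2 farthest libraries and 0.43 to 0.82 (without low-iron 3) without single libraries. The cause of these changes was not tested. Without counts in the table, the precision of genes near 0.5 FPKM, PFKFB3 among them, was judged only from the spread between pigs.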

Other observations

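Genes of liver zones were followed because gluconeogenesis is strongest around the portal vein. Of 10 periportal genes, 9 were lower in high-iron than in control (median log2 fold change -0.33). In high-iron against low-iron 9 were lower (-0.38), while in low-iron against control 6 were higher (0.07). Among all genes 65%, 53.6% and 62.7% were higher in these comparisons, in the same order. ARG1, the arginase of the urea cycle, was the only one of the 10 that passed, with 279, 454 and 298 FPKM in high-iron 2, 7 and 8, 785, 566 and 890 FPKM in control 4, 5 and 6, and 746, 599 and 799 FPKM in low-iron 2, 3 and 7. It fell by 1.13 on the log2 scale in high-iron against control (limma p = 0.00125, Benjamini-Hochberg adjusted p = 0.885; exact permutation p over the 3 groups 0.0321) and by 1.08 in high-iron against low-iron (limma p = 0.0017, Benjamini-Hochberg adjusted p = 0.539). The fold change dropped just under 2 without control 6 (-0.99) or high-iron 2 (-0.996) in the former comparison and without low-iron 7 (-0.995), high-iron 2 (-0.95) or high-iron 8 (-0.996) in the latter. Of 10 pericentral genes, 7 were higher in low-iron than in control (median 0.52) and 6 lower in high-iron than in low-iron (-0.37), where SLC1A2, a glutamate transporter, passed (-1.95, limma p = 0.0488, Benjamini-Hochberg adjusted p = 0.698; two-sided exact permutation p = 0.1). That call held without 3 of the 9 libraries in turn and was lost without low-iron 2, low-iron 3, low-iron 7, control 4, high-iron 2 or high-iron 7 (-2.15 to -1.36).

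Of 25 regulators that respond to glucagon, insulin or carbohydrate, 0 passed the thresholds in any comparison of the limma fit, with 1, 1 and 3 at an unadjusted p under 0.05. KLF15, a transcription factor of gluconeogenesis and amino acid breakdown, was the 1 in both comparisons with the control group and was named after its values were seen. It was 27.0, 23.5 and 27.0 FPKM in low-iron 2, 3 and 7, 45.1, 39.5 and 50.3 FPKM in control 4, 5 and 6, and 22.2, 21.5 and 29.3 FPKM in high-iron 2, 7 and 8. Each control library lay above each of the other 6. On the log2 scale the difference was -0.79 ± 0.18 (SE) in low-iron against control (limma p = 0.00128, Benjamini-Hochberg adjusted p = 0.9998) and -0.89 ± 0.18 in high-iron against control (limma p = 0.000548, Benjamini-Hochberg adjusted p = 0.767), with an exact permutation p of 0.0214 over the 3 groups, and both comparisons share the control libraries. Of 16 genes listed as induced in liver by fasting, 7 were higher in each of these comparisons (medians -0.14 and -0.05), and PDK4 in low-iron against control was the only one that passed in either.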
